A study of Mus musculus with 12 samples.

Results

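The 10 genes described here are trophectoderm transcription factors, simple-epithelial keratins and placental or epithelial genes: Krt7, Krt8, Krt18, Krt19, Tfap2a, Tfap2c, Gata2, Gata3, Plac1 and Lgals3. They were found by matching the Ensembl identifiers of the deposited gene tables to these symbols, and all 10 had a row among the 36521 rows of each table. Of these, 9 had a row of their own. Gata3 (ENSMUSG00000015619) shared a merged row with 9230102O04Rik (ENSMUSG00000079602), a gene that overlaps it on the same strand, so each value of the "Gata3 row" below covers both genes.

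The study measured poly(A)-selected RNA of V6.5 mouse embryonic stem (ES) cells by SOLiD sequencing in 3 groups of 4 libraries. Parental V6.5 cells had no knockdown. Tet1kd and Tet2kd cells were V6.5 cells that stably carried a pSUPER-puro vector expressing a short hairpin RNA against Tet1 or Tet2, were selected in puromycin on puromycin-resistant, mitomycin-inactivated SNL76/7-4 feeder cells, and were picked as single clones. All groups were grown with serum and LIF (leukaemia inhibitory factor). No control hairpin or empty vector is named in the labels, and the sources used here do not give the number of clones behind the libraries. What the vector, puromycin selection or clone picking did cannot be told apart from the knockdowns themselves. Both knockdowns were compared with the same parental libraries.

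Trophectoderm is the outer epithelium of the blastocyst, which forms the fetal part of the placenta, and ES cells derive from the inner cells and normally do not make it. AP-2 factors (Tfap2a, Tfap2c) and GATA factors (Gata2, Gata3) bind DNA and switch on trophectoderm genes, and the earliest filaments of that epithelium are built from pairs of a type II keratin (Krt7, Krt8) with a type I keratin (Krt18, Krt19). TET enzymes oxidize 5-methylcytosine, mostly at CpG dinucleotides, and loss of DNA methylation control in ES cells is known to bear on whether trophectoderm genes stay silent.

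Tet1 was at 25.2% of its parental level in Tet1kd cells and Tet2 at 50.9% in Tet2kd cells, from the group means of the authors' deposited tables. Tet1 in Tet2kd cells did not pass the test (116.5%, adjusted p = 0.104), and Tet2 in Tet1kd cells was at 118% (adjusted p = 0.0186), both from the authors' deposited tables. The ES cell genes Pou5f1, Nanog and Sox2 had means of 10105 to 20599 normalized reads in every group. Cdx2, the factor that specifies trophectoderm, had 31.2 ± 2.32 normalized reads in the parental libraries, 5.11 ± 3.21 in Tet1kd and 45.1 ± 14.4 in Tet2kd (SD, n = 4), and Elf5, a trophoblast stem cell factor, had at most 4.70 in any library. Eomes and Tead4, also of the trophectoderm programme, were higher. Eomes had means of 410 in parental, 709 in Tet1kd and 299.6 in Tet2kd libraries, and Tead4 had 1268, 1872 and 1173. The Y-linked genes Ddx3y, Eif2s3y and Uty had group means of 503 to 634 in parental cells, 6.58 to 24.5 in Tet1kd and 9.44 to 40.4 in Tet2kd. Feeder fibroblast markers (16 genes, none at 0 in any group mean) summed to 6105 to 6507 normalized reads in the parental libraries, 3687 to 4000.03 in Tet1kd and 7351 to 7753 in Tet2kd, and the part that feeder RNA had in the results below was not tested. The libraries held an estimated 14400000 to 39600000 reads in genes.

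A promoter window from RefSeq (GRCm38.p6) was matched for 8 of the 10 genes. Windows of 250 bases before the start are shown for the keratin genes of chromosome 15, since Krt8 and Krt18 fell and Krt7 rose in the same cells, and for Plac1, which nearly vanished from both knockdowns. They are printed 5′ to 3′ on the gene's strand in lower case, with each CpG dinucleotide in capitals.
Krt7, chr15:101412153-101412402, plus strand: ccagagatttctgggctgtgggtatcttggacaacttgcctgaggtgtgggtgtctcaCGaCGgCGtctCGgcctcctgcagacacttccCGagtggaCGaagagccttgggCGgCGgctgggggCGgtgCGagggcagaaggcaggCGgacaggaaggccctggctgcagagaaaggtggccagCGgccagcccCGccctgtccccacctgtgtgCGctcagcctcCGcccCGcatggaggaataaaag
Krt8, chr15:102004343-102004592, minus strand: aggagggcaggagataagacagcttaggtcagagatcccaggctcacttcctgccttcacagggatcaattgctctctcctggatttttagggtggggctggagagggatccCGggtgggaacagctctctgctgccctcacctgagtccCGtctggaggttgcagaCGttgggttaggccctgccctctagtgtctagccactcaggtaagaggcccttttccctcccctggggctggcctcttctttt
Krt18, chr15:102027966-102028215, plus strand: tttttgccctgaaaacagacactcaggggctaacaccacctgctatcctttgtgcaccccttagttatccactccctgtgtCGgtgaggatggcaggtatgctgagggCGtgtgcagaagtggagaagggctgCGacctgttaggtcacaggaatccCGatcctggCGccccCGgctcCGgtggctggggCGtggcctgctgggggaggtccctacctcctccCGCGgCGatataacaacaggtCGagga
Plac1, downstream start, chrX:53114406-53114655, minus strand: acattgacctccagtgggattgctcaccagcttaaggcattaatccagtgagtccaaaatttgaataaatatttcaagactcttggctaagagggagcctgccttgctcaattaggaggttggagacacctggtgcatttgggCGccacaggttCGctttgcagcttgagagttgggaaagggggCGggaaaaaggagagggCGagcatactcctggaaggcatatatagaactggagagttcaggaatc
Plac1, upstream start, chrX:53240111-53240360, minus strand: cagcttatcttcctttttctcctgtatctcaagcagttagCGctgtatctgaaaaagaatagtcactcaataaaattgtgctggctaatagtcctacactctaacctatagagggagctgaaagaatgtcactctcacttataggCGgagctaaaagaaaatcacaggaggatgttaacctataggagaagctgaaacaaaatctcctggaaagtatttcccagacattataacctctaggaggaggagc
Krt8 and Krt18 are transcribed away from each other, and their windows differ in CpG content: 3 CpGs for Krt8 and 12 for Krt18. The Krt7 window held 16 CpGs and the Plac1 windows 4 and 2. Over all 32851 windows of this length the median was 6 CpGs, with quartiles of 2 and 16. The other matched windows held 10 CpGs at each start of Tfap2a, 22 and 24 at the starts of Gata2, 19 for Gata3 and 13 for Lgals3. Both strands were searched for GCCNNNGGC, a core of AP-2 sites, for AGATAA, known from sites of GATA factors, and for GGAATG, known from sites of TEAD factors. GCCNNNGGC occurred at 2 positions in the Krt7 window, 1 in Krt18, 3 in Gata3 and 1 in the more downstream Gata2 window, against 13.7% of all windows with at least 1. Those windows had 60.4 to 74% G and C, against a median of 52.4% over all windows. The fixed letters of GCCNNNGGC are all G or C, so the 13.7% is not a like background for them. AGATAA was found once in the Krt8 window and once in the upstream Plac1 window (10.0% of all windows), and GGAATG once in the more downstream Gata2 window (12.6%). Such matches describe letters in these windows and are not evidence of binding.

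Tet1 knockdown came with changes in every one of these genes, and mostly with lower levels. At an adjusted p under 0.05 in the authors' deposited table, 3 genes rose in Tet1kd cells (Krt7, Tfap2c and Lgals3) and 7 fell (Krt8, Krt18, Krt19, Tfap2a, Gata2, the Gata3 row and Plac1), where 30.4% of the 23120 genes tested were called, 15.2% higher and 15.3% lower. Their median log2 fold change was -1.33, against -0.03 over all genes tested. In Tet2kd cells 1 gene rose (Tfap2c), 3 fell (Krt19, Plac1 and Lgals3) and 6 did not pass the test, where 7.14% of 22949 genes were called, 3.85% higher and 3.29% lower, all from the authors' deposited table. The median there was -0.19, against -0.01 over all genes tested. On recovered reads, limma tested all of them but Plac1. It called 3 higher and 6 lower in Tet1kd, where 51.2% of 13236 genes were called (25.7% higher and 25.5% lower), and 1 higher and 2 lower in Tet2kd, where 16.2% were called (8.47% higher and 7.7% lower).

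The values below are normalized reads per library: reads divided by the library's size factor, recovered from the deposited group means and given on 1 common scale. Libraries of each group are lettered a to d from the largest size factor to the smallest, which ties them to no numbered sample. A mean ± SD covers the 4 libraries of a group. Libraries a and b of every group deviated from their group mean alike, and so did c and d, so each group holds a deeper and a shallower pair. Over 9150 genes these deviations had r = 0.41 to 0.59 between libraries of different groups on the same side, and -0.55 to -0.40 between sides.

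**Figure D1:**
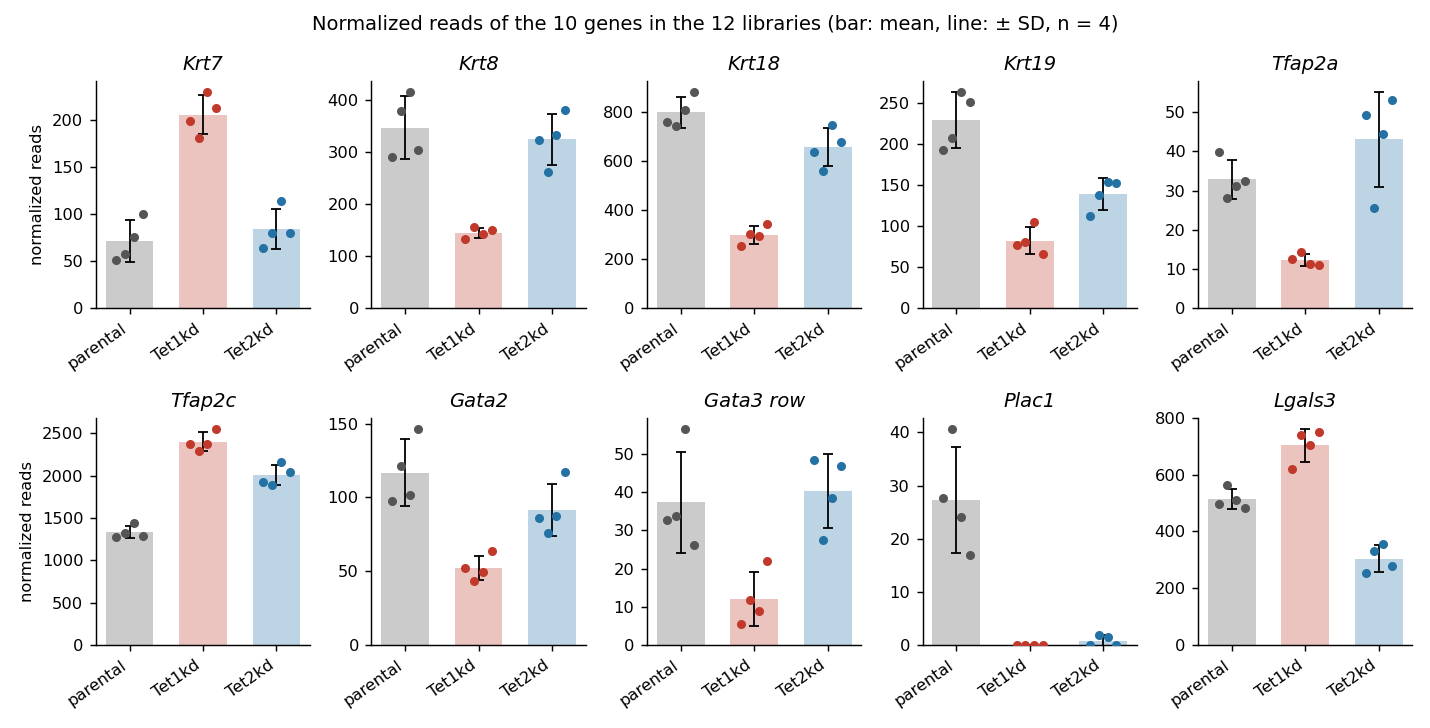
Normalized reads of each gene in the 12 libraries, 1 panel a gene with its own axis from 0. Points are libraries a to d from left to right, bars are group means and lines ± SD (n = 4). The 4 Tet1kd libraries of Krt8 lie between 134 and 155, all under the lowest parental library at 291.

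Krt8 and Krt18, the keratin pair that forms the first filaments of simple epithelia, fell together in Tet1kd cells and to a like degree. Krt8 (ENSMUSG00000049382, chromosome 15) had 291, 377, 415 and 303 normalized reads in parental libraries a to d, 134, 155, 142 and 150.4 in Tet1kd, and 323, 261, 332 and 380.4 in Tet2kd. Every Tet1kd library lay under every parental and every Tet2kd library, whereas the parental and Tet2kd ranges overlapped. Across 13236 genes with recovered reads in all 3 groups and a mean of at least 10, 47.2% had ranges that did not overlap between Tet1kd and parental libraries. Krt8 went from 346 ± 59.8 in parental to 145 ± 9.61 in Tet1kd cells (SD, n = 4), 2.38-fold lower (log2 fold change -1.25, adjusted p = 9.04e-10 in the authors' deposited table). In Tet2kd cells it was at 324 ± 48.8 (SD, n = 4; log2 fold change -0.10, adjusted p = 0.916 in the authors' deposited table). The limma 95% interval of that log2 difference ran from -0.39 to 0.21. A processed pseudogene, Krt8-ps, resembles Krt8, so how reads were shared between them is uncertain.

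Krt18 (ENSMUSG00000023043, chromosome 15), the type I partner of Krt8, had the highest level per length of the 10 genes in parental cells. Parental libraries a to d had 758, 744, 809 and 882 normalized reads, Tet1kd libraries 255, 303, 296 and 344, and Tet2kd libraries 638, 561, 746 and 677. All Tet1kd libraries were under all others, and 1 Tet2kd library (746) reached into the parental range. The mean fell from 798 ± 62.2 to 299 ± 36.3 (SD, n = 4), 2.67-fold lower (log2 fold change -1.41, adjusted p = 1.86e-34 in the authors' deposited table). The Tet2kd difference lay at the threshold. Its log2 fold change of -0.28 had an adjusted p of 0.0639 by the first and 0.000991 by the second of 2 tests in the authors' deposited table. On recovered reads limma gave an adjusted p of 0.0980, and 0.0202 with the deeper and shallower libraries as a term. Within the deeper libraries the Tet2kd log2 difference was -0.33 and within the shallower ones -0.25.

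The ratio within the pair moved little. Krt8 had 38.3, 50.7, 51.3 and 34.3 reads for every 100 Krt18 reads in parental libraries a to d, 52.4, 51.3, 47.9 and 43.8 in Tet1kd, and 50.7, 46.6, 44.5 and 56.2 in Tet2kd. The 3 ranges overlapped.

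Krt19 (ENSMUSG00000020911, chromosome 11), a type I keratin of simple and ductal epithelia, fell in both knockdowns and further in Tet1kd cells. It had 193, 208, 263 and 252 normalized reads in parental libraries a to d, 77.2, 80.8, 105 and 66.2 in Tet1kd, and 113, 138, 154 and 153 in Tet2kd. The 3 groups did not overlap: Tet1kd libraries were lowest, Tet2kd libraries lay between and parental libraries were highest. Of the same 13236 genes, 22.0% had separate ranges between Tet2kd and parental libraries and 43.6% between the knockdowns. From 229 ± 33.9 in parental cells, the level was 82.4 ± 16.4 in Tet1kd (log2 fold change -1.48, adjusted p = 6.56e-13 in the authors' deposited table) and 139 ± 19.2 in Tet2kd (log2 fold change -0.72, adjusted p = 0.000414 in the authors' deposited table; SD, n = 4).

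Krt7 (ENSMUSG00000023039, chromosome 15), like Krt8 a type II keratin of trophoblast, and one of many ducts, went the other way from Krt8. Parental libraries a to d had 50.8, 57.2, 75.1 and 100.4 normalized reads, Tet1kd libraries 198, 181, 229 and 212, and Tet2kd libraries 63.7, 79.8, 114 and 79.5. The Tet1kd libraries were all above the rest, and the parental and Tet2kd libraries overlapped. The mean rose from 70.9 ± 22.2 to 205 ± 20.7 (SD, n = 4), 2.90-fold (log2 fold change 1.53, adjusted p = 3.72e-18 in the authors' deposited table). Tet2kd cells, at 84.3 ± 21.3 (SD, n = 4), did not pass the test (adjusted p = 0.771 in the authors' deposited table), and the limma 95% interval of the log2 difference ran from -0.22 to 0.75. Parental Krt7 was higher in the shallower libraries (mean 87.7) than in the deeper ones (54.0). The Tet1kd log2 difference was 1.80 within the deeper and 1.34 within the shallower libraries.

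These opposite moves changed the balance among these 4 keratin genes, seen per kilobase of annotated exon. Krt7 made up 4.64, 4.04, 4.78 and 8.43% of the summed type II level (Krt7 plus Krt8) in parental libraries a to d, 29.2, 24.4, 31.0 and 28.2% in Tet1kd, and 5.18, 7.82, 8.72 and 5.49% in Tet2kd. Every Tet1kd library was above every other library. Which of the pair was higher in Tet1kd cells turns on the length used. Per kilobase Krt8 had 74.2 against 29.1 normalized reads for Krt7, but without length Krt7 had 148, 116, 162 and 141 reads for every 100 Krt8 reads in Tet1kd libraries a to d. The summed type I level (Krt18 plus Krt19) was 679 ± 58.4 per kilobase in parental, 253 ± 24.01 in Tet1kd and 531 ± 59.6 in Tet2kd cells. The summed type II level was 187 ± 30.4, 103 ± 4.77 and 178 ± 25.4 (SD, n = 4 each). For every 100 of type I, type II stood at 22.5 to 31.9 in parental libraries, 38.9 to 44.0 in Tet1kd and 30.9 to 37.2 in Tet2kd. Other keratin genes with reads, among them Krt42 and Krt17, are in neither sum. Exon lengths are unions of annotated exons (GENCODE M21), 7.05 kb for Krt7, so a transcript that uses few of those exons has its level per length, and its share, understated.

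**Figure D2:**
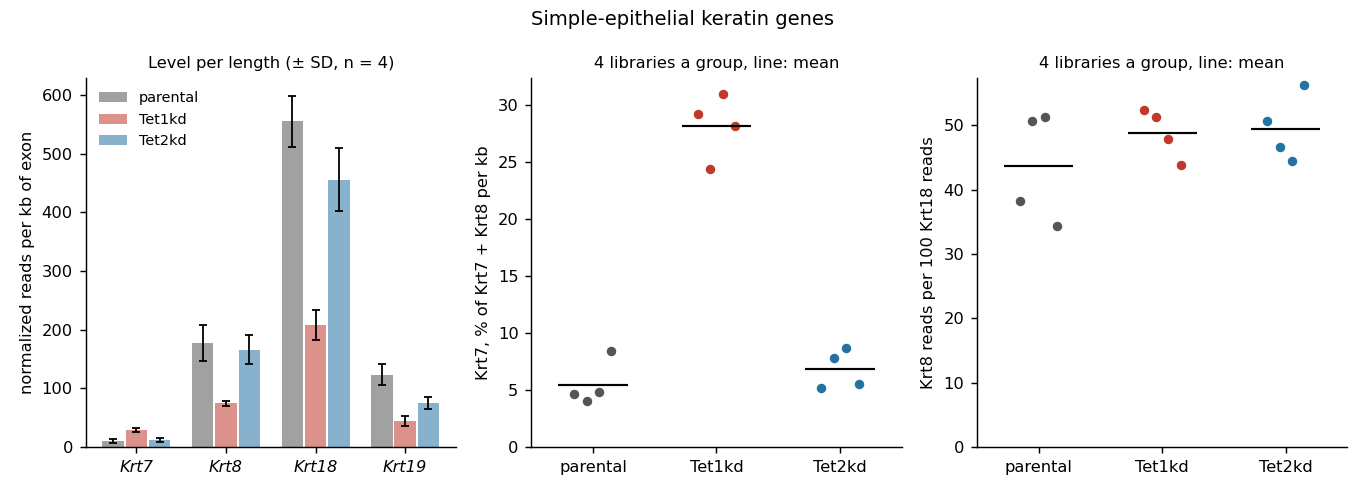
Left, normalized reads per kilobase of exon of the 4 keratin genes by group (bars, mean ± SD, n = 4). Middle, Krt7 as a percentage of Krt7 plus Krt8 per kilobase, and right, Krt8 reads for every 100 Krt18 reads, with 1 point a library and a line at the group mean. The Tet1kd points of the middle panel lie between 24.4 and 31.0%, above all others, while the 3 groups overlap in the right panel.

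The AP-2 genes diverged. Tfap2c (ENSMUSG00000028640, chromosome 2) encodes AP-2 gamma, which is needed for trophectoderm and germ cells and is also made by ES cells. It had 1278, 1328, 1436 and 1288 normalized reads in parental libraries a to d, 2378, 2292, 2373 and 2558 in Tet1kd, and 1928, 1896, 2163 and 2039 in Tet2kd. The 3 groups were separate, with Tet1kd highest and parental lowest. Its mean rose from 1332 ± 72.4 to 2400.1 ± 112 in Tet1kd and to 2006 ± 121 in Tet2kd cells (SD, n = 4). The log2 fold changes were 0.85 (adjusted p = 2.85e-19) and 0.59 (adjusted p = 1.22e-08) in the authors' deposited tables. Among the 10 genes it was the only one that rose in both comparisons, which share the parental libraries.

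Tfap2a (ENSMUSG00000021359, chromosome 13) encodes AP-2 alpha, a factor of surface ectoderm, neural crest and trophoblast, and fell in Tet1kd cells. Parental libraries a to d had 39.95, 28.2, 31.2 and 32.4 normalized reads, Tet1kd libraries 12.7, 14.3, 11.4 and 11.04, and Tet2kd libraries 49.2, 25.7, 44.5 and 53.0. Tet1kd libraries were all under the rest, and 1 Tet2kd library, b at 25.7, was under the parental range while the other 3 were above it. The mean fell from 32.9 ± 5.00 to 12.3 ± 1.46 in Tet1kd cells (SD, n = 4; log2 fold change -1.42, adjusted p = 0.00202 in the authors' deposited table). Tet2kd cells, at 43.1 ± 12.1 (SD, n = 4), did not pass (log2 fold change 0.39, adjusted p = 0.716 in the authors' deposited table). Without Tet2kd library b the limma log2 difference of Tet2kd from parental cells was 0.57 with an adjusted p of 0.0192, against 0.34 and 0.289 with it. Tfap2a had 2.12 to 3.13 reads for every 100 Tfap2c reads in parental libraries, 0.431 to 0.623 in Tet1kd and 1.36 to 2.60 in Tet2kd.

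Both GATA genes of the trophectoderm programme fell in Tet1kd cells and did not pass the test in Tet2kd cells. Gata2 (ENSMUSG00000015053, chromosome 6), a factor of trophoblast and of blood progenitors, had 97.3, 121, 102 and 147 normalized reads in parental libraries a to d, 51.9, 43.6, 49.4 and 63.5 in Tet1kd, and 86.1, 76.2, 87.5 and 117 in Tet2kd. The Tet1kd libraries were under all others. The mean went from 117 ± 22.4 to 52.1 ± 8.34 (SD, n = 4; log2 fold change -1.17, adjusted p = 1.04e-06 in the authors' deposited table). Tet2kd cells had 91.7 ± 17.6 (SD, n = 4; log2 fold change -0.35, adjusted p = 0.376 in the authors' deposited table). The neighbours of Gata2 on chromosome 6 were low too in Tet1kd cells: of the 20 nearest genes with a mean of at least 100, 18 fell and none rose in the authors' deposited table, with a median log2 fold change of -0.93. The median over 494 such genes of chromosome 6 was -0.20, and over 10816 such genes of all chromosomes 0.01. In Tet2kd cells the same count gave 0 lower and 0 higher, with a median of 0.01. Over all genes tested, low ones included, 15.3% fell and 15.2% rose in Tet1kd and 3.29% and 3.85% in Tet2kd cells. The part of this stretch of chromosome 6 in the fall of Gata2 was not tested.

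The Gata3 row (chromosome 2) holds Gata3, a trophectoderm factor that acts beside Cdx2, together with 9230102O04Rik. It had 32.7, 33.7, 56.7 and 26.2 normalized reads in parental libraries a to d, 5.52, 11.9, 8.87 and 22.1 in Tet1kd, and 48.5, 27.5, 38.5 and 46.8 in Tet2kd. The Tet1kd libraries stayed under the parental ones by a narrow gap, 22.1 against 26.2, and spread widely among themselves. From 37.3 ± 13.3 the mean fell to 12.1 ± 7.15 in Tet1kd cells (SD, n = 4; log2 fold change -1.63, adjusted p = 0.0015 in the authors' deposited table). It was 40.3 ± 9.57 in Tet2kd cells (SD, n = 4; log2 fold change 0.11, adjusted p = 0.971 in the authors' deposited table). This row rested on 145, 48 and 153 reads in the 3 groups.

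Plac1 (ENSMUSG00000061082, chromosome X), a placental gene, nearly disappeared from both knockdowns. Parental libraries a to d had 27.6, 40.7, 24.1 and 17.0 normalized reads, from 118 reads in all. No Tet1kd library had a read. Tet2kd libraries a to d had 0, 2, 1 and 0 reads. With a floor of 3 reads per library, Plac1 was at least 9.14-fold lower in Tet1kd than in parental cells (adjusted p = 1.47e-13 in the authors' deposited table). The pooled Tet2kd reads stood at 2.69% of parental ones, with an exact 95% interval of 0.547 to 8.05% that covers counting error only (adjusted p = 3.26e-09 in the authors' deposited table). The knockdowns could not be told apart at this depth. Of its 20 nearest genes on the X chromosome with a mean of at least 100, 1 rose and 3 fell in Tet1kd and 6 rose and 1 fell in Tet2kd cells, in the authors' deposited tables. Over all genes tested, low ones included, 15.2% rose and 15.3% fell in Tet1kd and 3.85% and 3.29% in Tet2kd cells. The Y-linked genes given above were low in the same groups as Plac1, and their part in this result was not tested.

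Lgals3 (ENSMUSG00000050335, chromosome 14), encoding the sugar-binding protein galectin-3, moved in opposite directions in the 2 knockdowns. Parental libraries a to d had 498, 564, 509.9 and 483 normalized reads, Tet1kd libraries 619, 739.5, 703 and 749, and Tet2kd libraries 252, 329, 357 and 279. No range overlapped another: Tet1kd libraries were above and Tet2kd libraries below all parental ones. The mean of 514 ± 35.2 rose to 703 ± 59.2 in Tet1kd cells (SD, n = 4; log2 fold change 0.45, adjusted p = 0.000867 in the authors' deposited table). It fell to 304 ± 47.7 in Tet2kd cells (SD, n = 4; log2 fold change -0.76, adjusted p = 3.82e-09 in the authors' deposited table). Within the deeper and the shallower libraries the Tet1kd log2 difference was 0.35 and 0.55, and the Tet2kd one -0.88 and -0.65.

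Tet1kd and Tet2kd libraries were compared directly with limma on recovered reads, in the fit of all 3 groups. The parental libraries enter this comparison through the shared estimate of the spread and the scale that joins the tables. All 9 genes with a sufficient mean passed, 3 higher and 6 lower in Tet1kd cells, where 47.4% of 13236 genes passed, 24% higher and 23.4% lower. Krt7 differed by 1.30 ± 0.22 on the log2 scale (SE; adjusted p = 0.000589) and Lgals3 by 1.22 ± 0.11 (SE; adjusted p = 8.00e-06), both higher in Tet1kd. Tfap2c differed least, by 0.26 ± 0.06 (SE; adjusted p = 0.00663). Lower in Tet1kd were the Gata3 row (-1.83 ± 0.37, adjusted p = 0.00212), Tfap2a (-1.72 ± 0.20, adjusted p = 5.45e-05), Krt8 (-1.15 ± 0.14, adjusted p = 5.31e-05) and Krt18 (-1.13 ± 0.11, adjusted p = 1.14e-05; SE). Gata2 differed by -0.80 ± 0.17 (adjusted p = 0.00241) and Krt19 by -0.76 ± 0.16 (adjusted p = 0.00224; SE). All 9 kept their direction within the deeper and within the shallower libraries.

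**Figure D3:**
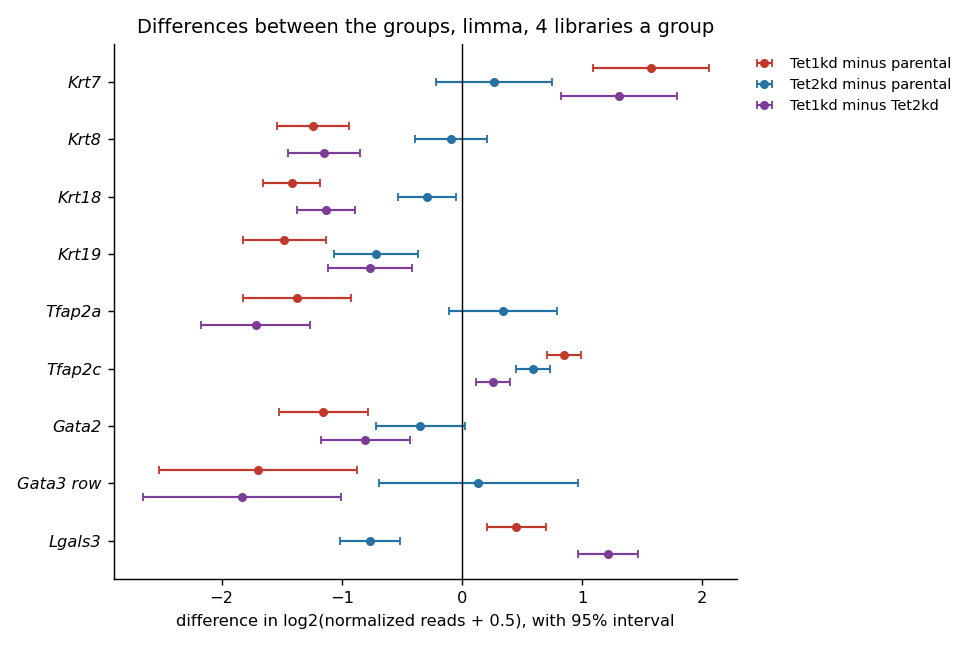
Differences between groups in log2(normalized reads + 0.5) from limma, with 95% intervals, for the 9 genes with a mean of at least 10 over the groups. Tet1kd minus parental (red) lies away from 0 for every gene. Lgals3 has the Tet1kd interval above 0 (0.20 to 0.70) and the Tet2kd interval below it (-1.01 to -0.52).

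Per length of exon, the order of the 10 genes changed with the knockdown. In parental cells Krt18 led at 555 normalized reads per kilobase, followed by Tfap2c (362), Lgals3 (276), Krt8 (177) and Krt19 (123), with separate ranges at each step. Gata2 (21.6), Plac1 (19.6), Krt7 (10.1), the Gata3 row (7.72) and Tfap2a (6.72) followed, and no neighbours among these differed beyond their spread. Tfap2c led in Tet1kd cells at 652, ahead of Lgals3 (378), Krt18 (208), Krt8 (74.2), Krt19 (44.4), Krt7 (29.1) and Gata2 (9.65), again with separate ranges. The place of Krt7 after Krt8 and Krt19 in Tet1kd cells rests on its exon length of 7.05 kb, since without length its 205 normalized reads were above their 145 and 82.4. Tet2kd cells had Tfap2c (545) and Krt18 (456) first with overlapping ranges, then Krt8 (166) and Lgals3 (164), which also overlapped, and Krt19 (75.1).

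The deposited exon tables asked whether the relative use of exon bins within a gene changed. The 10 genes were cut into 133 bins. Of 82 bins tested in Tet1kd, 3 passed an adjusted p of 0.05 in the authors' deposited table, where 2.56% of all bins did. They were E001 of Tfap2c, its first of 18 bins by number (adjusted p = 0.0471), and E012 and E018 of the 21 bins of Lgals3 (adjusted p = 0.0331 and 0.0472). In Tet2kd 1 of 83 tested bins passed, E012 of Lgals3 (adjusted p = 0.0303 in the authors' deposited table), where 2.45% of all bins did. Lgals3 E012 had a mean of 2.40 in the Tet1kd and 1.51 in the Tet2kd table, so it rests on few reads. No bin of the 4 keratins, Tfap2a, Gata2 or the Gata3 row passed in either DEXSeq table, and 4 of 48 tested bins in Tet1kd and 3 of 52 in Tet2kd had an unadjusted p under 0.05 in the authors' deposited tables. None of the called bins passed a threshold of 0.01.

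Other genes of the trophectoderm programme did not share 1 direction. Of 36 tested genes of a trophectoderm and trophoblast list, 12 rose and 9 fell in Tet1kd cells (median log2 0.19), and of 34 tested in Tet2kd cells 4 rose and 4 fell (median 0.07), in the authors' deposited tables. Over all genes tested, 15.2% rose and 15.3% fell in Tet1kd (median -0.03) and 3.85% and 3.29% in Tet2kd cells (median -0.01). These shares are also the background of the lists in the next paragraphs. Cdx2 fell in Tet1kd cells (log2 fold change -2.61, adjusted p = 6.94e-08), while Eomes (0.79, adjusted p = 1.87e-11) and Tead4 (0.56, adjusted p = 1.26e-08), which act with Cdx2 in trophoblast and upstream of it, rose in the authors' deposited table. Eomes fell in Tet2kd cells (-0.45, adjusted p = 0.00845 in the authors' deposited table), and Cdx2 (0.53, adjusted p = 0.641) and Tead4 (-0.11, adjusted p = 0.692) did not pass there. Elf5 passed in neither (adjusted p = 0.481 and 0.7996 in the authors' deposited tables). Hopx rose (2.33) and the imprinted placental genes Peg10 (-1.68) and Igf2 (-1.17) fell in Tet1kd cells, and in Tet2kd cells Sox21 rose (1.06) and Bmp4 (-0.61) and Phlda2 (-0.47) fell, by log2 fold change in the authors' deposited tables.

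Most keratins other than the 4 above had few reads: 4 of 20 tested in Tet1kd and 3 of 21 in Tet2kd cells had a mean of at least 10. Highest were Krt42 (469 in parental and 312 in Tet1kd cells) and Krt17 (184 and 202), in mean normalized reads of the authors' deposited table. Of the 20 in Tet1kd cells 2 rose and 3 fell, Krt42 among the latter, and of the 21 in Tet2kd cells none passed, in the authors' deposited tables. At an unadjusted p under 0.05 from DESeq, and by the second deposited test, 1 of these 21 was higher and 1 lower in Tet2kd cells in the authors' deposited table. Krt80 went from 8.04 to 64.2 and Krt1 from 3.01 to 13.4 in mean normalized reads, and Krt10 from 46.2 to 26.4, between parental and Tet1kd cells in the authors' deposited table. Among 16 partners of keratins (desmosomal plaque proteins, linkers and other intermediate filaments), 6 rose and 6 fell in Tet1kd and 2 fell in Tet2kd cells in the authors' deposited tables. Dsp, the desmosomal protein that anchors keratin filaments, rose (log2 fold change 1.34), and Nes (-2.03), a filament of neural progenitors, and Fam83h (-0.89), which organizes keratin filaments, fell in Tet1kd cells in the authors' deposited table. Fam83h (-0.58) and the desmosomal gene Pkp2 (-0.43) fell in Tet2kd cells in the authors' deposited table.

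Of 17 tested AP-2 and GATA relatives and cofactors, 5 rose and 5 fell in Tet1kd cells, and of 16 in Tet2kd cells 2 fell, in the authors' deposited tables. Kctd1 (log2 fold change 2.33), which represses AP-2 activity, and Cited2 (0.62), an AP-2 coactivator, rose in Tet1kd cells in the authors' deposited table. Gata6, the primitive endoderm factor, fell in both (-1.81 and -1.54), and Lmo4 fell in Tet2kd cells (-0.45), in the authors' deposited tables. Of 9 other galectin genes, Lgals1 (-1.61), Lgals7 (-1.91) and Lgals3bp (-0.72) fell and Lgals8 (0.52) rose in Tet1kd cells, and Lgals3bp (-0.71) alone passed in Tet2kd cells, in the authors' deposited tables. Among 14 genes of the Hippo and Notch pathways, which regulate Cdx2, with the pathway outputs Ccn1 and Ccn2 among them, 1 rose and 5 fell in Tet1kd cells, Amotl2 (-0.90), Amot (-0.69) and Rbpj (-0.65) by the smallest adjusted p, in the authors' deposited table. In Tet2kd cells 3 rose, the YAP targets Ccn2 (0.93) and Ccn1 (0.64) and the Hippo activator Nf2 (0.31), and 1 fell, in the authors' deposited table.

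Markers of other cell types moved beside the 10 genes. Of 14 epithelial markers 10 rose and none fell in Tet1kd cells (median log2 0.62), among them Epcam (0.82), Esrp1 (0.97) and Grhl2 (1.015), in the authors' deposited table. Among the simple-epithelial keratins Krt8, Krt18 and Krt19 fell there and Krt7 rose (1.53). In Tet2kd cells 4 of the epithelial markers rose and none fell in the authors' deposited table. Of all genes tested there, 3.85% rose and 3.29% fell (15.2% and 15.3% in Tet1kd). At an unadjusted DESeq p under 0.05, 1 of these markers was lower in Tet1kd and 0 in Tet2kd, and by the second test 2 and 1, in the authors' deposited tables. Of 16 feeder fibroblast markers 13 fell and none rose in Tet1kd cells (median -1.01), with Dcn at 3.17% of its parental mean, and 4 rose and 2 fell in Tet2kd cells (median 0.04), in the authors' deposited tables. Primitive endoderm markers split 3 higher and 3 lower of 12 in Tet1kd cells and 0 higher and 4 lower in Tet2kd, and surface ectoderm markers 1 and 1 of 8 in Tet1kd and 0 and 1 in Tet2kd, in the authors' deposited tables. Keratins of surface ectoderm were low: Krt5 had means of at most 2.01, Krt14 of at most 8.60 and Krt15 of at most 4.53. Of the other markers of that list, Trp63 (2.04) and Wnt6 (7.94) had low parental means too. Perp (1353), Grhl3 (585) and Msx2 (71.9) had higher ones, in the authors' deposited table. Of 10 ES cell markers 6 rose and 1 fell in Tet1kd and 1 rose in Tet2kd cells in the authors' deposited tables. In these bulk libraries fewer cells of a type and less RNA per cell cannot be told apart, and the part of these cell types in the results was not tested.

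**Figure D4:**
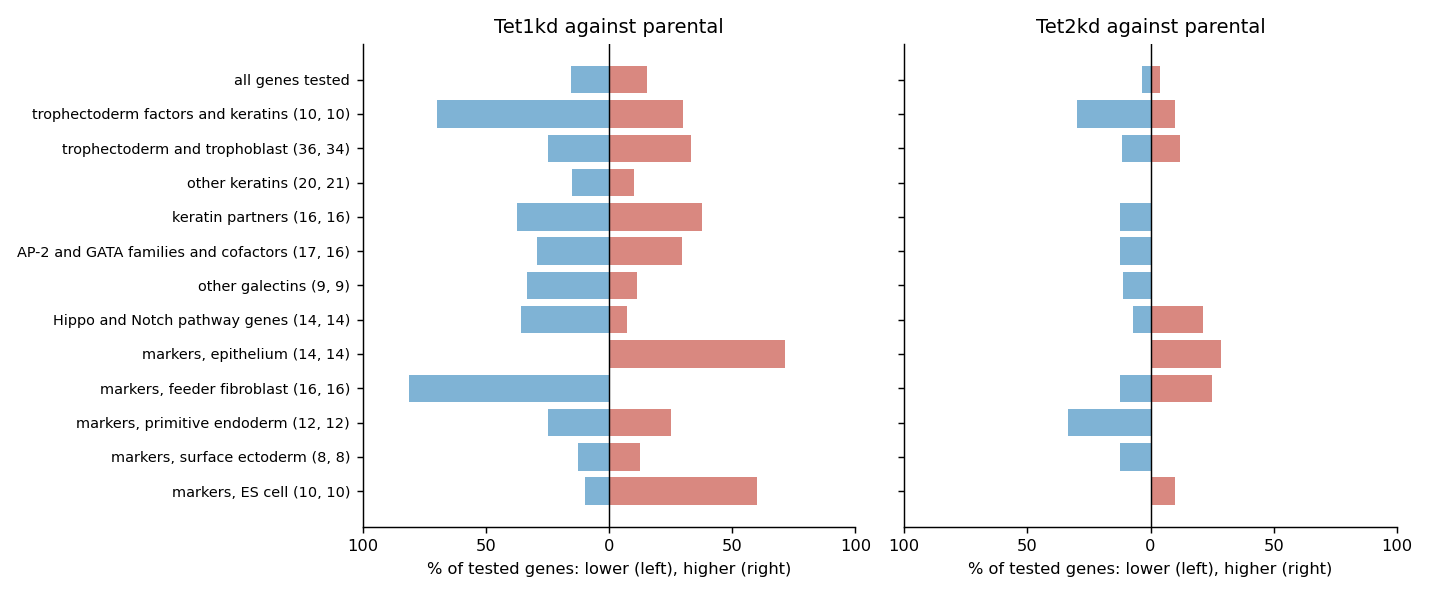
Percentage of tested genes of each list that were lower (blue, left) or higher (red, right) than parental at an adjusted p under 0.05 in the authors' deposited tables; numbers after a list are the genes tested in Tet1kd and Tet2kd. All genes tested are in the top bar (15.3% lower and 15.2% higher in Tet1kd). The 10 genes have 7 lower and 3 higher in Tet1kd and 3 lower and 1 higher in Tet2kd.

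Neighbouring genes were compared to see whether a gene moved with its surroundings. For each gene the 20 nearest genes with a mean of at least 100 were taken, 10 on each side. Apart from Gata2, the median of the neighbours lay between -0.09 and 0.10 in Tet1kd cells, from the log2 fold changes of the authors' deposited table. The neighbours of Krt7, Krt8 and Krt18, which lie on chromosome 15, had medians of -0.08, 0.03 and 0.00 while those genes changed by 1.53, -1.25 and -1.41 in the authors' deposited table. In Tet2kd cells all 10 medians lay between -0.11 and 0.12.

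**Figure D5:**
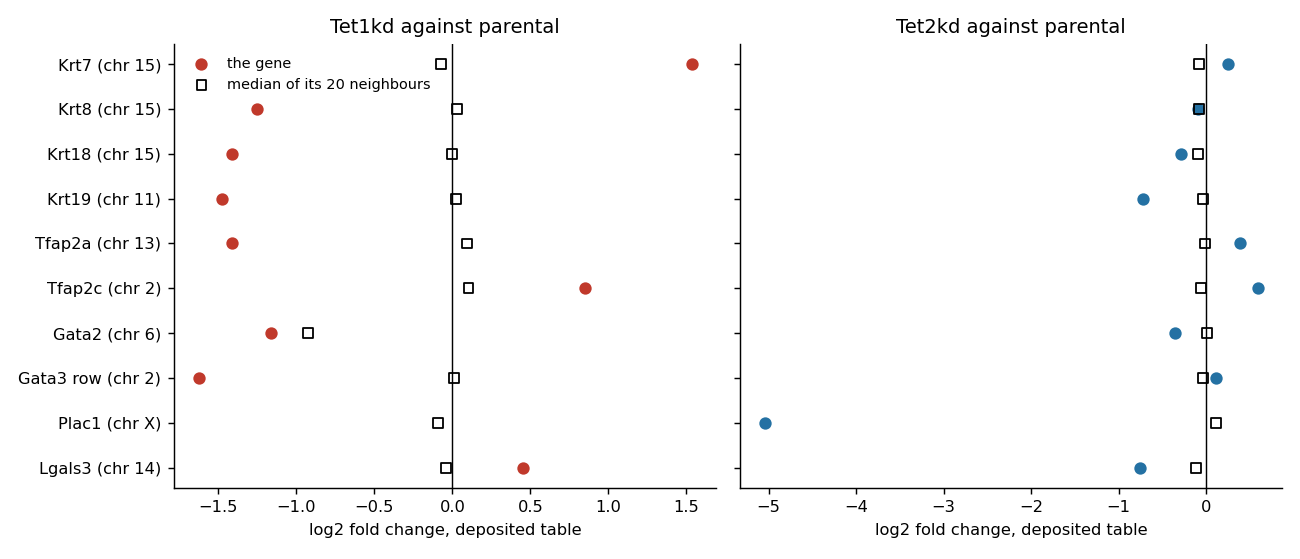
Log2 fold change of each gene (filled circles) and the median of its 20 nearest genes (open squares) in the authors' deposited tables, by knockdown, with a separate axis in each panel. Plac1 has no value in the left panel because no Tet1kd library had a read. The squares sit near 0 except beside Gata2 in Tet1kd cells, at -0.93.

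The genes whose pattern was most like those of 4 members were found among 9150 genes with a mean of at least 100, by Pearson's r of log2 values over the 12 libraries. These libraries fall into 3 groups and share their depth pairs, so r mostly reads group differences. Closest to Krt8 were Slc4a2, Crmp1 and Rassf1 (r = 0.98 for each). Closest to Krt18 were Nab2, Csrnp1 and Ints5 (0.99 for each). Acss1 (0.99), Gtsf1l and Simc1 (0.98 for both) were closest to Tfap2c, and Helz2 (0.96), Eogt (0.96) and 1700030K09Rik (0.95) to Lgals3. Krt8 and Krt18 had r = 0.95 with each other, and -0.88 and -0.85 with Krt7.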

How the data were processed

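RNA of 12 libraries (3 groups of 4) was sequenced on SOLiD. Per the submitters' processing notes, TopHat2 2.0.0, SAMtools 0.1.18 and DESeq were used with mm9 (NCBIM37). No source used here gives the counting settings. The deposited gene tables hold group means as a normalized signal, their ratio (fold), its log2 and 2 p-values with adjusted p-values, and the deposited exon tables hold DEXSeq bin means, log2 ratios and p-values, per the file headers. A dispersion score for each exon bin, also deposited by the authors, was not used.

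The first adjusted p in the authors' deposited tables at 0.05 was the main test. Reads of each library were recovered from the digits of the means: each mean is a sum of 4 whole counts divided by size factors, and for every gene used 1 combination matched within 20 to 300% of the mean, widest for low genes. This held for 21933 of 22004 parental genes with reads, 19866 of 21658 in Tet1kd and 19989 of 21368 in Tet2kd, and for all 10 genes. Genes with recovered reads held 87.1% of normalized reads in parental, 39.9% in Tet1kd and 44.9% in Tet2kd libraries. For Tfap2c the search covered 20% (Tet1kd) and 40% (Tet2kd) around the mean, which limits the spread that its SD and limma values could show. On simulated counts 400 of 400 were recovered rightly in both groups, with the same size factors used to make and to solve them. The simulated means stayed below those of Tfap2c, so the search at its level was not simulated. Tet2kd values were multiplied by 1.089 to the scale of the Tet1kd table. limma 3.58.1 (R 4.3.3) was fitted to log2(normalized reads + 0.5) of 13236 genes with a mean of at least 10, with Benjamini-Hochberg adjustment; on simulated data for Tet1kd against parental, with 13150 genes in that fit, it called 87 of 100 genes changed 2-fold and 53 of 100 changed 1.5-fold. Plac1 (mean under 10) was outside this fit. The p-values measure the spread between libraries labelled biological replicates, which no source used here ties to separate cultures or clones.

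Named were the 10 genes; in each list up to 3 genes with the smallest adjusted p in each comparison, plus Cdx2, Eomes, Elf5 and Tead4; and the 3 genes with the highest r for each of 4 genes. Tet1, Tet2, Pou5f1, Nanog, Krt5, Krt14, Krt17, Trp63, Wnt6 and the Y-linked genes were named outside this rule, after values were seen, as was Lgals3bp in Tet1kd cells. The genes and lists were chosen with earlier results of these data known.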

Additional observations from a re-analysis of the deposited data

Results flagged for a closer look

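Lgals3 was called in opposite directions in the 2 knockdowns, higher than parental in 4 of 4 Tet1kd libraries and lower in 4 of 4 Tet2kd libraries. The difference between the knockdowns, tested directly with limma, was 1.22 on the log2 scale (SE 0.11, adjusted p = 8.00e-06). That test used the same libraries as the calls that flagged Lgals3, so it gives the size of the difference and no separate support. Among 29 groups of 4 libraries, 1 for each gene and group with reads, none held a library whose gap to the nearest other passed Dixon's 95% critical value, which chance passes in about 1 of 20 groups.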

How the results depend on the processing

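No paired analysis was possible because the recovered libraries cannot be tied to the numbered samples, so no fit with a replicate block was made. In Tet1kd against parental cells, all counts of called genes stayed at 3 higher and 7 lower (3 and 6 where Plac1 was not in the fit) under the second deposited test, a mean of at least 10, centring on the median, limma, a threshold of 0.01, another pseudocount, no filter, the depth pairs as a term and each library left out. In Tet1kd against Tet2kd cells the counts stayed at 3 higher and 6 lower under the same limma settings (3 and 6 with each library left out), except that Plac1 was also tested without the filter. In Tet2kd against parental cells, limma called 1 to 2 genes higher and 2 lower when 1 library was left out. The higher value came without Tet2kd library b, which called Tfap2a. Krt18 in Tet2kd passed by the second deposited test, with only genes of a mean of at least 10 (adjusted p = 0.0426) and with the depth pairs as a term. Of the 3 exon bins called in Tet1kd and the 1 in Tet2kd, 0 and 0 passed a threshold of 0.01, and 0 passed in Tet2kd with only bins of a mean of at least 10, which leaves 42 tested bins. TMM factors were not used because reads of the most abundant genes were not recovered, and centring took their place. Depth limits Plac1, the Gata3 row and Tfap2a most.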
